A study of Sus scrofa with 6 samples.

Results

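Matrix metalloproteinases (MMPs) and their tissue inhibitors (TIMPs) were examined in pig (Sus scrofa) femoral arteries by 9 array probes of 6 genes. All array probes whose transcript identifier belongs to MMP1, MMP2, MMP3, MMP14, TIMP1 or TIMP2 in pig RefSeq were taken, which gave 9 of 43380 probes, 5 for the MMPs and 4 for the TIMPs. MMP2 had 2 probes, TIMP1 had 3 and each of the other 4 genes had 1. The 9 probes stand for 6 of 2384 genes that the array's named probes cover. Tissue came ex vivo from where each artery had been punctured and closed. In 3 arteries the puncture had been closed with TAG, the vascular glue under study, and in 3 with Exoseal, a marketed vascular closure device. All 6 samples carry the same puncture side. Strain, sex, age and time after closure are not given in the sources used here, no untreated artery is included, and the labels do not say how many animals were used. The p-values therefore measure only how far these samples spread, and that spread may be technical. Exoseal replicate 1 is Exoseal by title and source name and TAG by its treatment characteristic. It was grouped by title. A further label text on every sample, about irradiated human blood, goes against the organism, titles and source names and was not used.

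MMPs are zinc-dependent proteases that cut collagens, elastin, gelatin and other parts of the matrix of the vessel wall, and they are made as inactive zymogens that need to be cleaved. TIMPs bind the active site of MMPs and block it, so the local amounts of both enter into how much matrix is turned over. In arteries these proteins are made by smooth muscle cells, fibroblasts, endothelial cells and macrophages, and they are known from work on wound repair, neointima formation and aneurysm. RNA levels do not measure active protease, because activation and inhibition act on the proteins.

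The 2 groups differed in overall signal. TAG arrays had 34.7% to 41.2% of probes flagged by the scanner as well above background, and Exoseal arrays had 60.6% to 70.8%. The 75th percentile of the processed signal was 19.3 to 36.4 on TAG arrays and 61.0 to 151 on Exoseal arrays. The 3 TAG arrays and Exoseal replicate 1 were on slide 1, and Exoseal replicates 2 and 3 were on slide 2. The median spot signal of negative controls was 25 to 27.5 on TAG arrays and 38 on Exoseal replicate 1, against 10 and 9.5 on Exoseal replicates 2 and 3. Levels below are log2 of the processed signal minus the log2 of the array's own 75th percentile, called the scaled level. A scaled level of 0 is at that percentile. Since a probe's brightness also depends on its own sequence, levels are compared between arrays for the same probe, and not between probes.

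Of the 9 probes, 5 were well above background on all 6 arrays: both MMP2 probes, MMP14, the brightest TIMP1 probe and TIMP2. On the TAG arrays 3 probes were not above background on any array (MMP1, MMP3 and 1 TIMP1 probe), whereas 8 of the 9 were above background on all 3 Exoseal arrays. Among all tested probes, 18.3% were likewise above background on no TAG array and on every Exoseal array. A probe was tested if it was above background on at least 3 of the 6 arrays, which left out MMP1. The limma test then called 0 of 8 MMP and TIMP probes at an adjusted p of 0.05, and 2 of 8 had an unadjusted p under 0.05, as did 31.0% of all tested probes. In the same fit 10.8% of all 22720 tested probes were called, 7.06% higher and 3.69% lower in TAG. The groups did not overlap for 3 of the 8 probes, 1 with TAG above and 2 with TAG below, and over all tested probes the share was 36.4%, with 20.2% for TAG above and 16.2% for TAG below. The median log2 difference of the 8 probes was 0.25, against 0.08 over all probes.

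**Figure D1:**
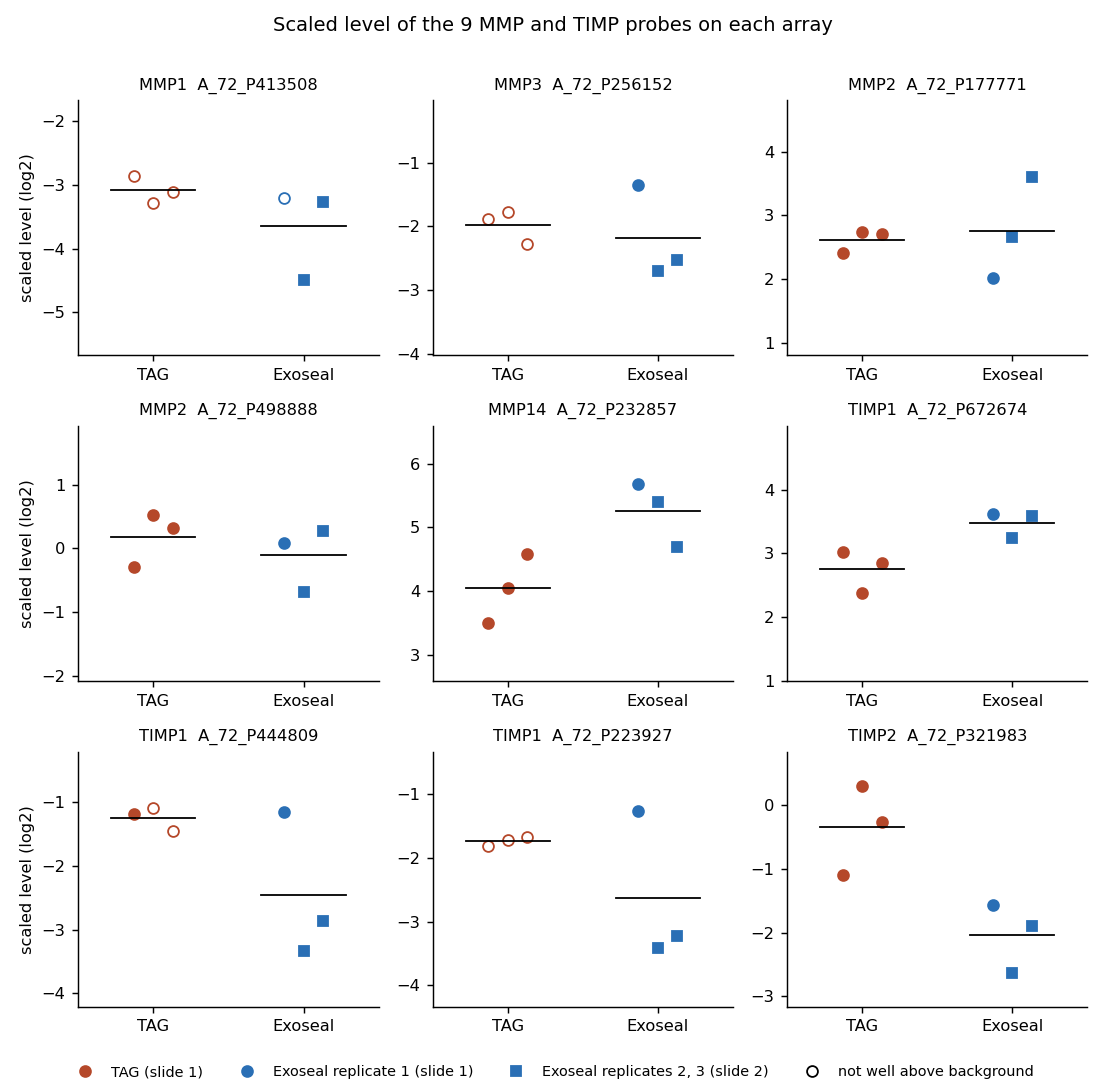
Scaled level (log2 signal relative to the array's 75th percentile, y axis) of each MMP and TIMP probe on each array, with TAG left of Exoseal and horizontal bars at the group means (n = 3). Filled symbols are well above background, open ones are not, and squares are the 2 Exoseal arrays of slide 2. MMP14 and the brightest TIMP1 probe had all TAG arrays below all Exoseal arrays, and TIMP2 had all TAG arrays above.

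MMP1, the interstitial collagenase that makes the first cut in fibrillar collagen, was at the edge of detection. Its probe (A_72_P413508) had processed signals of 5.02, 2.65 and 2.24 on the TAG arrays, and 7.43, 6.74 and 6.35 on the Exoseal arrays. Only Exoseal replicates 2 and 3 passed the background flag, and the higher signal of 7.43 on Exoseal replicate 1, on the slide with brighter negative controls, did not. On the scaled level the groups overlapped, at -3.08 ± 0.21 in TAG and -3.65 ± 0.72 in Exoseal (SD, n = 3 each). No fold is given for MMP1, since the TAG values lie below background.

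MMP3, stromelysin-1, has a wide range of matrix substrates and can activate other MMP zymogens. In the pig assembly Sscrofa11.1 its gene is the next one to MMP1, with 0 annotated genes between them, and its entry also carries the name MMP10 as a synonym. The MMP3 probe (A_72_P256152) gave processed signals of 9.80, 7.52 and 3.96 in TAG, none above background, and 26.9, 23.2 and 10.6 in Exoseal, all above background. Scaled levels were -1.89, -1.78 and -2.28 in TAG, and -1.35, -2.70 and -2.53 in Exoseal. All 3 unscaled Exoseal signals were above all TAG signals, while on the scaled level the groups overlapped. The difference was smaller than the spread between arrays (limma, adjusted p = 0.810), and no fold is given because TAG was not above background.

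MMP2, gelatinase A, degrades denatured collagen and type IV collagen of basement membranes. Its brighter probe (A_72_P177771) had scaled levels of 2.41, 2.74 and 2.70 in TAG, and 2.02, 2.67 and 3.59 in Exoseal. The groups overlapped, with both the lowest and the highest array in Exoseal. The log2 difference was -0.14 ± 0.50 (SE), with a 95% interval of -1.26 to 0.98 and an adjusted p of 0.876 in limma. The dimmer MMP2 probe (A_72_P498888) had scaled levels of -0.29, 0.53 and 0.32 in TAG, and 0.08, -0.69 and 0.28 in Exoseal, which also overlapped. Its log2 difference was 0.30 ± 0.47 (SE; 95% interval -0.75 to 1.34; limma, adjusted p = 0.709). The intervals include 0 and also values near or past 1 log2 unit. The gene whose level ran most like the brighter MMP2 probe over the 6 arrays was CFL1, the actin-severing protein cofilin-1. It had 2.78, 3.14 and 2.91 in TAG, and 2.30, 2.92 and 3.72 in Exoseal, at a root mean square difference of 0.093 log2 units after centring each gene.

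MMP14, also called MT1-MMP, is anchored in the cell membrane, cleaves fibrillar collagen and is the main activator of the MMP2 zymogen. Its probe (A_72_P232857) had scaled levels of 3.50, 4.04 and 4.58 in TAG, and 5.68, 5.40 and 4.69 in Exoseal. Before scaling, its signals were 412, 424 and 462 in TAG, and 3510, 6371 and 1575 in Exoseal. On both scales every TAG array was below every Exoseal array, and on the scaled level TAG replicate 3 came within 0.11 log2 units of Exoseal replicate 3. MMP14 averaged 4.04 ± 0.54 in TAG and 5.26 ± 0.51 in Exoseal (SD, n = 3 each). The log2 difference was -1.22 ± 0.48 (SE; 95% interval -2.30 to -0.13), or 2.32-fold, and it did not pass over all probes (limma, adjusted p = 0.124). Against Exoseal replicate 1 alone, on the same slide, the difference was -1.64 (limma, adjusted p = 0.0793), with the lone Exoseal array assumed to vary like the TAG arrays. With normexp background correction and quantile scaling the difference was -1.39 (limma, adjusted p = 0.0935). With Exoseal replicate 1 counted as TAG it shrank to -0.59. MMP14 was in the upper part of every array, at the 94.3, 95.3 and 96.9 percentiles of all probes in TAG and at the 98.7, 98.3 and 97.0 percentiles in Exoseal.

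Markers of several cell types differed between the groups beside MMP14, and in bulk tissue fewer cells of a type and less RNA per cell cannot be told apart. The summed level of 10 macrophage and monocyte markers, of 16 listed, was 18.0 to 27.1 times the 75th percentile in TAG and 82.5 to 186 times in Exoseal. Of these 10 markers 5 were lower in TAG by the test and 0 higher, beside 3.69% lower and 7.06% higher of all tested probes. The brightest in Exoseal were ACP5, LYZ, AIF1 and CCR1, at mean scaled levels of 5.84, 4.65, 4.44 and 4.07. CD163, CD14 and C1QA went the other way, at log2 differences of 0.10, 0.23 and 0.68, and were not called. For C1QA every TAG array was above every Exoseal array. The 5 endothelial markers on the array, of 10 listed, summed to 6.94 to 11.0 in TAG and 16.6 to 53.8 in Exoseal. By the test 1 of 4 was lower, beside 3.69% of all tested probes. It was CDH5, the brightest of them in Exoseal at a mean scaled level of 4.32. PECAM1 and NOS3 were lower and not called, at log2 differences of -1.57 and -0.52. ENG went the other way at 0.84 and was not called, and CLDN5 was not tested. The part of these cells in the MMP14 difference was not tested.

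The genes whose scaled level ran most like MMP14 over the 6 arrays, by the same measure, were CYBA (0.28 log2 units) and SLA-DRA (0.29) out of 1078 other named genes. CYBA, a subunit of the phagocyte NADPH oxidase, had 2.64, 3.39 and 3.38 in TAG, and 4.58, 4.08 and 3.21 in Exoseal. SLA-DRA, a pig MHC class II chain of antigen-presenting cells, had 3.69, 3.86 and 4.23 in TAG, and 5.41, 5.22 and 3.89 in Exoseal. As for MMP14, Exoseal replicate 3 was the lowest Exoseal array for both, and for these genes it overlapped with TAG.

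TIMP1 inhibits most soluble MMPs, inhibits MMP14 poorly and also binds the MMP9 zymogen. Its brightest probe (A_72_P672674) had scaled levels of 3.02, 2.38 and 2.85 in TAG, and 3.61, 3.24 and 3.59 in Exoseal. All TAG arrays were below all Exoseal arrays. The means were 2.75 ± 0.33 in TAG and 3.48 ± 0.21 in Exoseal (SD, n = 3 each). The log2 difference of -0.73 ± 0.42 (SE; 95% interval -1.67 to 0.21), or 1.66-fold, did not pass (limma, adjusted p = 0.268). Closest to this probe was ITM2B, an integral membrane protein gene (0.19 log2 units), with 5.66, 5.56 and 5.90 in TAG, and 6.85, 6.26 and 6.68 in Exoseal.

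The other TIMP1 probes were near background in TAG, so no direction is read from them. Probe A_72_P444809 was above background on 1 of 3 TAG arrays and on 3 of 3 Exoseal arrays. Its scaled levels were -1.18, -1.09 and -1.45 in TAG, and -1.16, -3.33 and -2.86 in Exoseal. Probe A_72_P223927 had -1.82, -1.73 and -1.67 in TAG, none above background, and -1.26, -3.41 and -3.23 in Exoseal, all above background. For both probes the groups overlapped, since Exoseal replicate 1, on the slide of the TAG arrays, lay near or above the TAG levels, and the Exoseal arrays of slide 2 lay well below. Neither passed (limma, adjusted p = 0.197 and 0.342). Before scaling, A_72_P444809 had 16.1, 12.1 and 7.03 in TAG and 30.6, 15.0 and 8.43 in Exoseal, and those signals overlapped as well.

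**Figure D2:**
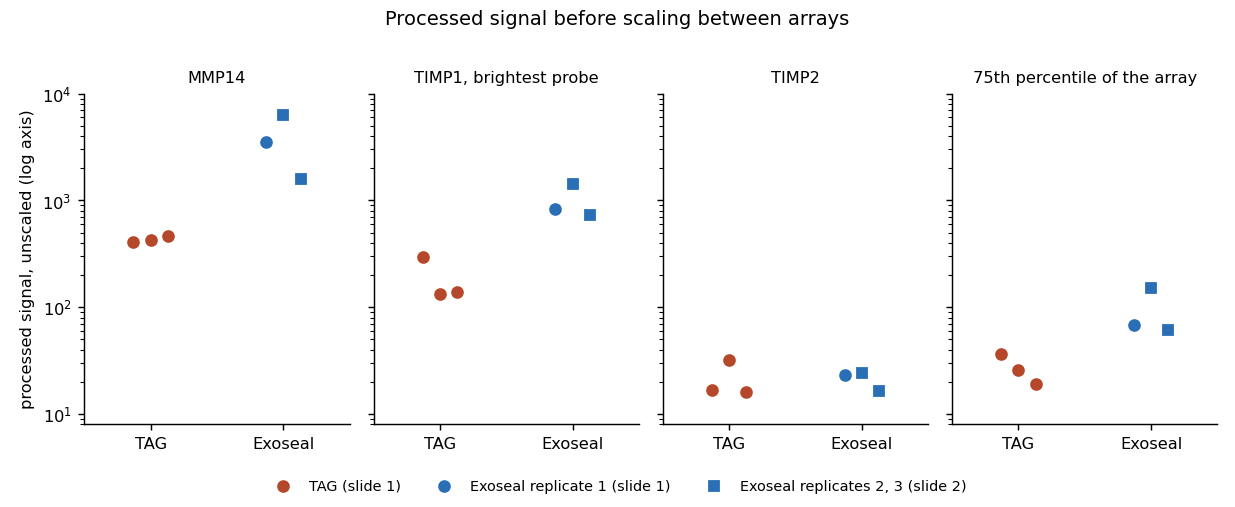
Processed signal before scaling (log axis) of MMP14, the brightest TIMP1 probe, TIMP2 and the array's 75th percentile on each array, with TAG left of Exoseal and squares for slide 2. TIMP2 had 16.1 to 31.8 in TAG and 16.4 to 24.3 in Exoseal, while the 75th percentile was 19.3 to 36.4 in TAG and 61.0 to 151 in Exoseal.

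TIMP2 inhibits MMPs broadly. On the cell surface it also bridges MMP14 and the MMP2 zymogen, so that at moderate amounts it takes part in activating MMP2 and at high amounts it blocks MMP14. The TIMP2 probe (A_72_P321983) had scaled levels of -1.10, 0.31 and -0.26 in TAG, and -1.57, -2.63 and -1.89 in Exoseal. All TAG arrays were above all Exoseal arrays, the opposite order to MMP14. TIMP2 averaged -0.35 ± 0.71 in TAG and -2.03 ± 0.54 in Exoseal (SD, n = 3 each). The log2 difference was 1.68 ± 0.52 (SE; 95% interval 0.52 to 2.85), or 3.21-fold, the widest of the 8 tested probes in absolute size, and it missed the threshold over all probes (limma, adjusted p = 0.0651).

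Before scaling, the TIMP2 processed signals were 17.0, 31.8 and 16.1 in TAG and 23.0, 24.3 and 16.4 in Exoseal, and the groups overlapped. Relative to the other probes of the same array they were apart. TIMP2 kept about the same signal on arrays whose 75th percentile differed, and it ranked higher on TAG arrays, at the 62.3, 77.8 and 72.0 percentiles of all probes, than on Exoseal arrays, at the 52.4, 53.0 and 57.7 percentiles. TIMP2 passed the test in 2 of 19 alternatives, without Exoseal replicate 1 (1.91; limma, adjusted p = 0.00970) and with probes restricted to those above background on all arrays (1.68; adjusted p = 0.0402). With normexp and quantile scaling the log2 difference was 0.51, and within slide 1 it was 1.22 (limma, adjusted p = 0.196).

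The genes closest to TIMP2 by the same measure were PLAC9 (0.31 log2 units) and FBN1 (0.31). FBN1, fibrillin-1 of the elastic microfibrils, had scaled levels of 2.38, 3.13 and 2.83 in TAG, and 1.13, 0.93 and 1.17 in Exoseal. PLAC9, a small secreted protein gene, had 0.19, 0.97 and 0.89 in TAG, and -1.0, -1.96 and -1.46 in Exoseal. In both, as in TIMP2, TAG replicate 1 was the lowest TAG array and every TAG array was above every Exoseal array. Summed levels of other stromal markers also ran higher in TAG. The 3 fibroblast markers on the array, of 11 listed, summed to 266 to 295 times the 75th percentile in TAG and 120 to 161 times in Exoseal. By the test 1 of 3 was higher, IGFBP6 at 1.45 (limma, adjusted p = 0.0470), beside 7.06% of all tested probes. THY1, above background on no TAG array, had -0.09 and was not called. Most of the fibroblast sum came from the brightest probe of DCN (decorin), at 7.83 ± 0.07 in TAG and 6.91 ± 0.25 in Exoseal (SD, n = 3 each), which did not pass. Its log2 difference of 0.91 became -0.02, -0.11 and -0.13 with normexp, quantile scaling and the authors' deposited table. The dimmer DCN probes A_72_P280399 and A_72_P628487 passed (1.91 and 1.86; limma, adjusted p = 0.0362 and 0.0346). A_72_P178111 (0.49; adjusted p = 0.440) and the mean of the DCN probes (1.29; adjusted p = 0.0724) did not. The 6 smooth muscle markers, of 11 listed, summed to 477 to 570 in TAG and 253 to 287 in Exoseal. By the test 3 of 6 were higher, beside 7.06% of all tested probes. The brightest were CNN1 and DES, at mean scaled levels of 7.80 and 7.64 in TAG. CNN1 and TPM2 were not called, and MYLK went the other way (-1.37; limma, adjusted p = 0.136). The part of fibroblasts and smooth muscle in the TIMP2 difference was not tested.

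**Figure D3:**
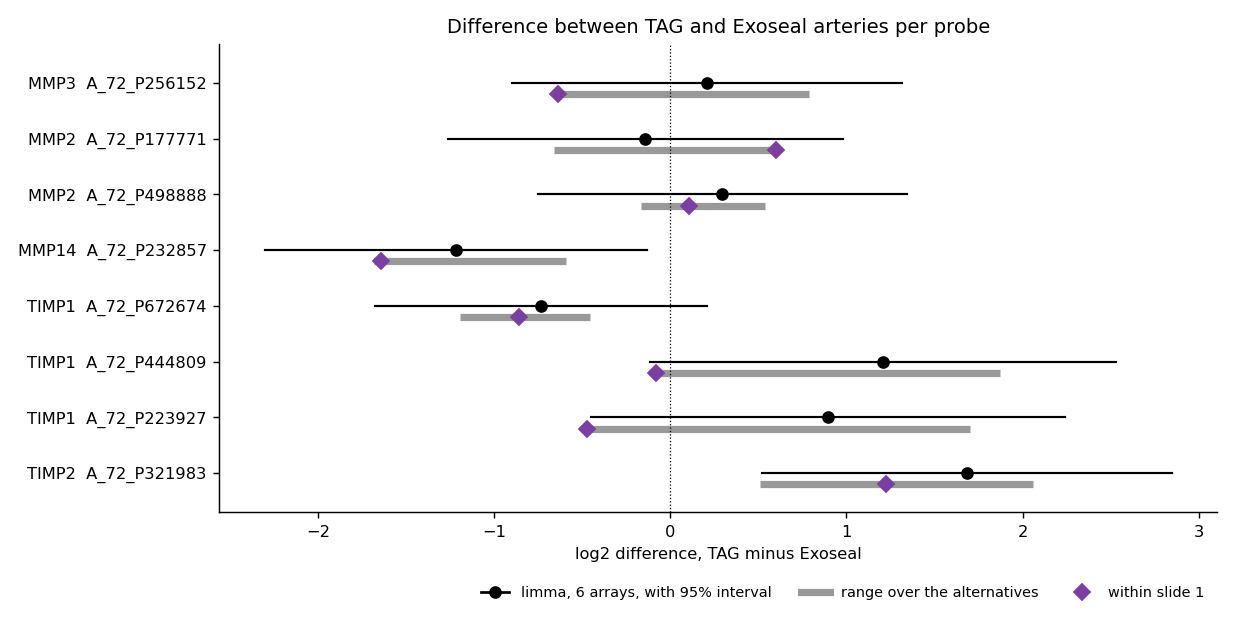
Log2 difference of TAG minus Exoseal (x axis) for the 8 tested probes, with the limma estimate and its 95% interval (black), the range over the alternatives (grey) and the value within slide 1 (diamond). MMP14 stayed below 0 and TIMP2 above 0 in every alternative run, and the 2 dim TIMP1 probes, mostly not above background in TAG, lay on either side of 0.

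The protease to inhibitor balance was taken on each array as the mean scaled level of the MMPs minus that of the TIMPs, with the brightest probe of each gene. A log ratio of probes on the same array does not depend on the array's scaling factor. Because a probe's brightness also depends on its own sequence, only the ratio's difference between arrays carries meaning, and its size on an array does not. With MMP2 and MMP14 against both TIMPs, all well above background, the balance was 2.00, 2.05 and 2.35 in TAG, and 2.83, 3.73 and 3.29 in Exoseal. TAG was below Exoseal on every array, with a difference of -1.15 log2 units, or 2.22-fold, and of -0.70 within slide 1. With all 4 MMPs the balance was -0.67, -0.91 and -0.82 in TAG, and -0.23, -0.08 and -0.23 in Exoseal, a difference of -0.62, and this version holds MMP1 and MMP3, which were not above background in TAG. No p is given for these sums, because they were formed over chosen genes.

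Of the 8 single pairs, 4 had both genes above background on all arrays, and among these the ratio of MMP14 to TIMP2 differed most. It was 4.60, 3.74 and 4.84 log2 units in TAG, and 7.26, 8.03 and 6.58 in Exoseal. The highest TAG array was 1.74 log2 units below the lowest Exoseal array. The means were 4.39 ± 0.58 in TAG and 7.29 ± 0.73 in Exoseal (SD, n = 3 each), so that the ratio was 7.46-fold lower in TAG. Within slide 1 the log2 difference was -2.86, against -2.90 over both slides, so the difference was nearly as large without the arrays of slide 2. With normexp and quantile scaling it was -1.90. Before scaling, TIMP2 was dim and overlapped between the groups (16.1 to 31.8 in TAG, 16.4 to 24.3 in Exoseal). The ratio therefore mainly follows the unscaled MMP14 signal, at 412 to 462 in TAG and 1575 to 6371 in Exoseal. The array's 75th percentile also differed, at 19.3 to 36.4 in TAG and 61.0 to 151 in Exoseal. The part of array brightness in this ratio was not tested. Of the ratios of all 581581 pairs among the named genes that were well above background on all arrays, 38% did not overlap between the groups and 15.2% also differed by at least 4-fold. The 4-fold mark was set after the values were seen, and the pair was 1 of 8, so nothing particular to these genes is drawn from its separation.

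The other ratios depended on which inhibitor was used. MMP2 over TIMP2 was 3.51, 2.43 and 2.96 in TAG, and 3.59, 5.30 and 5.49 in Exoseal, a difference of -1.82 that was -0.62 within slide 1 and also -0.62 with normexp. MMP14 over TIMP1 was 0.48, 1.66 and 1.74 in TAG, and 2.07, 2.16 and 1.1 in Exoseal, which overlapped. Its difference was -0.48. MMP2 over TIMP1 also overlapped, with a difference of 0.59 that turned to -0.38 with the mean of the probes of each gene. No direction is read from the ratios of MMP1 and MMP3, which were above background on no TAG array.

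**Figure D4:**
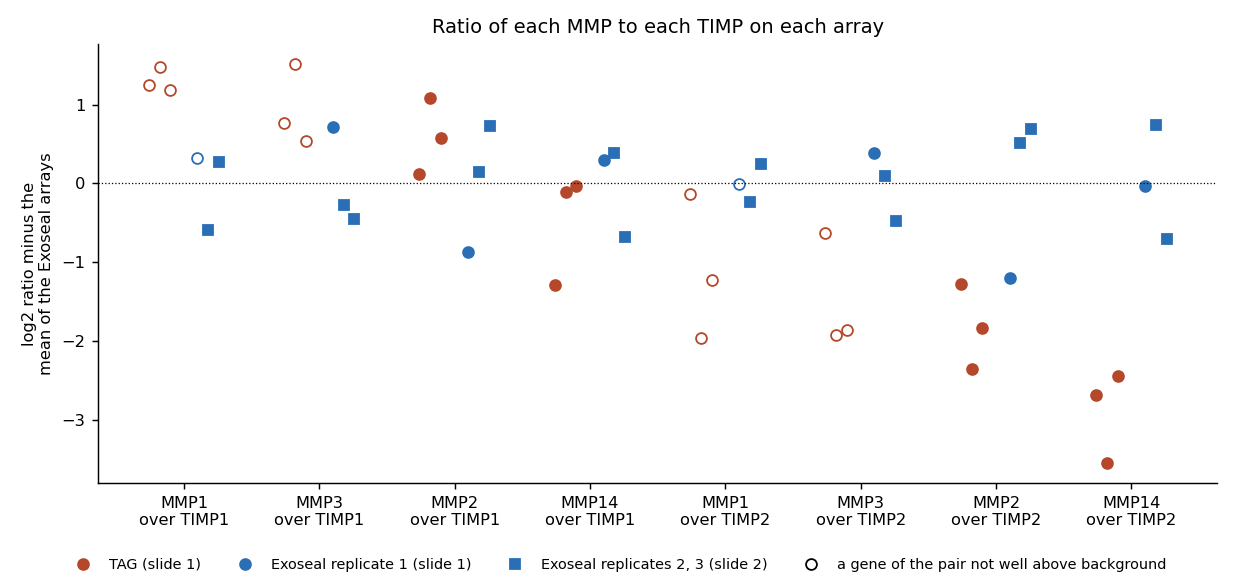
Log2 ratio of each MMP to each TIMP on each array (y axis, minus the mean of the 3 Exoseal arrays), with TAG left of Exoseal and open symbols where a gene of the pair was not well above background. The ratio of MMP14 to TIMP2 lay at -3.56 to -2.45 on the TAG arrays, and the ratio of MMP14 to TIMP1 overlapped.

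Of 122 other genes of matrix turnover in 7 lists, 42 were on the array and 34 were tested by their brightest probe. The test called 5 of them higher and 1 lower in TAG, beside 10.8% of all tested probes. Of 18 other metalloproteinases, 1 was tested, and MMP9 (gelatinase B of neutrophils and macrophages) fell. Its scaled level was 1.49 ± 0.31 in TAG and 4.07 ± 0.77 in Exoseal (SD, n = 3 each), a log2 difference of -2.58 ± 0.50 (SE; limma, adjusted p = 0.0249). MMP9 did not pass as the mean of its probes (-1.40) or with Exoseal replicate 1 counted as TAG (-1.50; limma, adjusted p = 0.227), and within slide 1 its brightest probe had -3.17. Of the 10 macrophage and monocyte markers summed above, LYZ, CCR1, ACP5, AIF1 and CD86 were also lower in TAG, and their part in the MMP9 difference was not tested. MMP12, MMP17 and MMP20 were also on the array and were above background on too few arrays to be tested. With any of the 3 TAG arrays left out, and likewise without Exoseal replicate 2 or 3, limma made 0 calls over all probes (4573 to 6426 at an unadjusted p under 0.05). Without Exoseal replicate 1, 16 of the 34 genes passed.

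Of the matrix substrates of these proteases, 4 of 6 tested by their brightest probe were called higher, beside 7.06% of all tested probes. The list median was 1.82 against 0.08 over all probes. COL5A1, a chain of type V collagen, rose by 3.25 ± 0.65 log2 units (SE; limma, adjusted p = 0.0257). SPARC, a collagen-binding matricellular protein, rose by 2.01 ± 0.47 (adjusted p = 0.0342), TNC, tenascin C, by 1.94 ± 0.48 (adjusted p = 0.0387) and FBN1 by 1.70 ± 0.42 (adjusted p = 0.0378). Within slide 1 their log2 differences were 2.33, 1.42, 1.68 and 1.64, against the lone Exoseal replicate 1. COL5A1 did not pass with normexp, quantile scaling or the authors' deposited table (1.78, 1.86 and 1.85; limma, adjusted p = 0.137, 0.0889 and 0.0870), and neither did SPARC (1.40, 1.48 and 1.46). The dimmer COL5A1 probes A_72_P444639 and A_72_P077826 had 1.91 and 1.63 and did not pass (limma, adjusted p = 0.197 and 0.123). COL5A2 was not called by its brightest probe (0.29), while its dimmer probe A_72_P441768 passed at 1.77 (limma, adjusted p = 0.0369). Another dimmer COL5A2 probe, A_72_P591869, had 1.23 and did not pass (limma, adjusted p = 0.0856). FBN1 and TNC did not pass with median scaling (1.24 and 1.48). In all, the calls of COL5A1, SPARC, TNC and FBN1 were lost in 12, 13, 11 and 11 of 19 alternatives. Their rise stood beside the higher summed levels of fibroblast and smooth muscle markers given above, whose part in it was not tested.

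Among 6 genes of plasminogen activation, PLG, the zymogen of plasmin, rose by 3.42 ± 0.68 log2 units (SE; limma, adjusted p = 0.0257) and the other 5 did not pass. PLG was above background on 1 of 3 Exoseal arrays, and its difference was 1.78 within slide 1 (limma, adjusted p = 0.050) and 0.56 with normexp and quantile scaling. Of 7 cathepsins and cystatins, 0 passed in limma and 1 had an unadjusted p under 0.05, beside 31.0% of all tested probes. It was CTSK, a collagen-cleaving cysteine protease, at 1.39 (adjusted p = 0.0632), followed by CTSH, an aminopeptidase of the same family, at 0.69 (adjusted p = 0.314). CTSK passed with normexp, quantile scaling and the authors' deposited table (limma, adjusted p = 0.0275, 0.0375 and 0.0332). It also passed with the stricter filter and without Exoseal replicate 1 (limma, adjusted p = 0.0377 and 0.0295). With median scaling it had 0.93 and did not pass (limma, adjusted p = 0.270).

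Of the 3 tested inhibitors and binding partners 0 passed in limma, and all 3 had an unadjusted p under 0.05, beside 31.0% of all tested probes. The integrin chains ITGB3 and ITGAV had log2 differences of 1.65 and -1.93 (limma, adjusted p = 0.0507 and 0.0604). No direction is read from them, since ITGB3 turned to -0.39 with normexp, -0.15 with quantile scaling and -0.17 in the authors' deposited table, and ITGAV to 0.10 as the mean of its probes. ADAMTS1, a proteoglycan-cleaving protease and the one tested gene of its list, had -2.09 (adjusted p = 0.172) and 0.18 within slide 1. No direction is read from it either. Its dimmer probe (A_72_P181051) had 2.06 (limma, adjusted p = 0.0823), and the mean of its probes was -0.01. Of 10 tested transcription factors and cytokines that act on MMP genes, 0 passed in limma and 3 had an unadjusted p under 0.05, a share like the 31.0% of all tested probes. NFKBIA, the inhibitor of NF-kappa-B, had 1.45 (limma, adjusted p = 0.113) and IL6 had -1.54 (adjusted p = 0.133). Averaged over its probes, IL6 had -0.17.

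**Figure D5:**
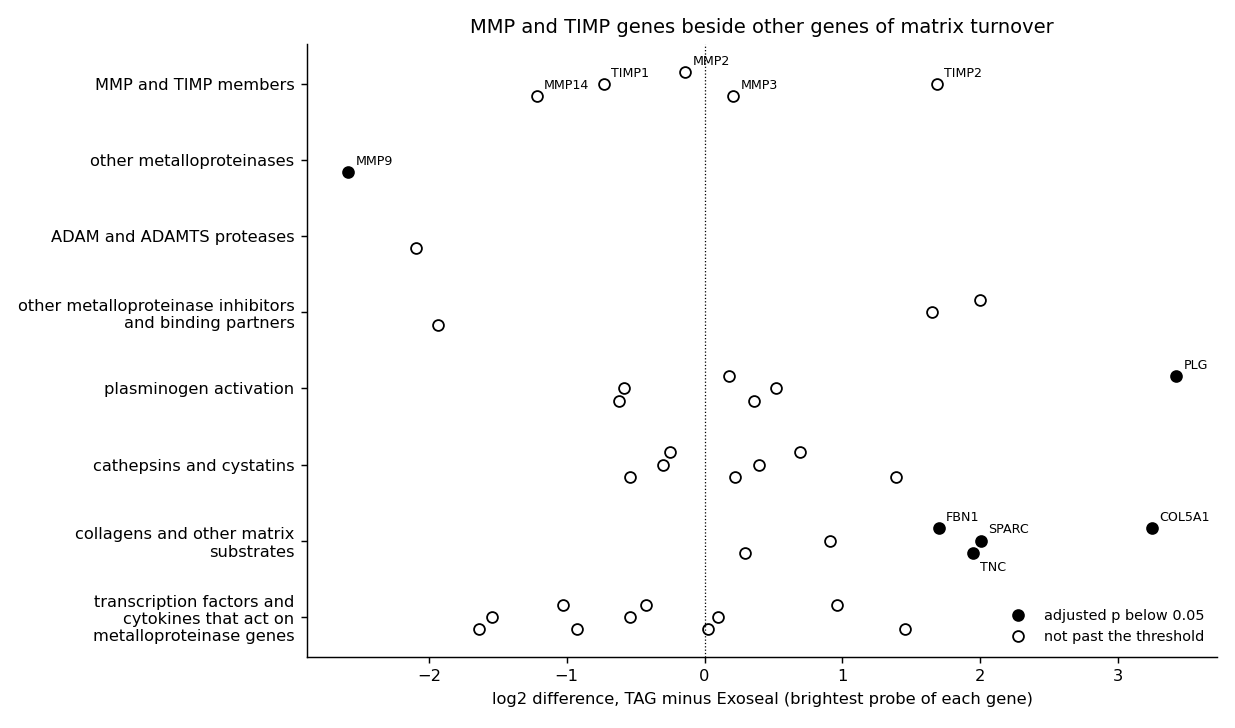
Log2 difference of TAG minus Exoseal (x axis) for the brightest probe of each tested gene, in rows for the MMP and TIMP genes and the 7 lists of other matrix turnover genes. Filled circles passed an adjusted p of 0.05 in limma. The 5 plotted MMP and TIMP genes lay between -1.22 and 1.68 and none passed, and 6 genes of the lists did.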

How the data were processed

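Cy3-labelled RNA of each sample was hybridised to a 1-colour Agilent array, per the labels' protocols. The deposited scanner files, made with Agilent Feature Extraction 11.0.1.1 per the submitters' processing notes, hold spot intensity values. The processed signal is an intensity background-subtracted within each array, per the file headers. The authors' deposited table holds values that, from their range and common column median of 3.40, had been put on a log2 scale and brought to a shared level by the authors. The sources used here do not name its software, and it served as an alternative.

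Control spots and outlier spots were left out, and the spots of a probe were averaged. No spot was saturated. Probes were named through RefSeq identifiers matched to a gene table of Sscrofa11.1, used for names and neighbours alone, which gave 1 symbol to 5435 of 43380 probes. Each array's 75th percentile was taken off its log2 signals, and TAG minus Exoseal was fitted in R 4.3.3 by lmFit and eBayes of limma 3.58.1 (two-sided), with Benjamini-Hochberg adjustment over 22720 probes. A probe had to be well above background on 3 of 6 arrays. The number of arrays limits the precision. As an alternative, normexp with an offset of 50 was run on the median spot signal and local background, in place of the mean signal planned. Other lists of genes are described by their brightest probes, naming every called gene of a list, or the 2 lowest in p where none was called. The 2 genes closest to a member were chosen among named genes above background on all arrays. The MMP and TIMP genes, the other lists and the tests were chosen with earlier results of these data known.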

Additional observations from a re-analysis of the deposited data

How the results depend on the processing

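MMP14 was lower in TAG in all 19 alternatives, from -1.68 to -0.59 log2 units, and passed in none. TIMP2 was higher in all 19, from 0.51 (normexp and quantile) to 2.06. The ratio of MMP14 to TIMP2 stayed between -3.25 and -1.90. The brighter MMP2 probe turned sign with quantile scaling (0.041), the authors' table (0.036), slide as a block or within slide 1 (0.60), without Exoseal replicate 3 (0.28, lowest -0.51 with another array left out) and as a mean of probes (0.078), and the dimmer one with median scaling (-0.17). MMP3 turned with normexp (-0.053), quantile (-0.26) or median scaling (-0.25), the authors' table (-0.41), slide as a block or within slide 1 (-0.64) and without Exoseal replicate 2 (-0.046, highest 0.63 with another array left out). The dim TIMP1 probes turned with slide as a block or within slide 1 (-0.47 and -0.081), and the brightest as a mean of probes (0.46). MMP2 over TIMP1 turned with Exoseal replicate 1 counted as TAG (-0.21) and by mean of probes (-0.38), and MMP3 over TIMP1 by mean of probes (-0.25).

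Of MMP and TIMP probes, 2 passed with Exoseal replicate 1 as TAG, 1 with the stricter filter, and 0 to 3 with 1 array left out (3 without Exoseal replicate 1). The 2 dim TIMP1 probes, mostly not above background in TAG, make up the first 2 and are among the 3. The 2443 calls over all probes became 1602 with normexp, 1049 with median scaling, 3788 with Exoseal replicate 1 as TAG and 0 without a filter on dim probes (14128 at an unadjusted p under 0.05). With 1 array left out they were 0 to 7715, with 7715 without Exoseal replicate 1 and 0 without any other array (4573 to 6426 at an unadjusted p under 0.05). The split of 1604 higher and 839 lower became 1629 and 1523 with quantile scaling, 492 and 557 with median scaling, and 1136 and 907 with slide as a block. The median over all probes, 0.08, moved to -0.39 with median scaling, -0.05 with quantile scaling and 0.21 with the percentile of detected probes. The 6 called genes of the other lists became 3 with median scaling, within slide 1 or by mean of probes, 1 with slide as a block, 0 without a filter, and 0 to 16 with 1 array left out. The balance of all 4 MMPs, -0.62, was -0.36 with normexp, -0.92 with quantile scaling, -0.89 in the authors' table, -0.50 with Exoseal replicate 1 as TAG, -1.16 by mean of probes, -1.15 with detected genes alone, and -0.69 to -0.56 with 1 array left out. The causes of these changes were not tested.

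Same-numbered TAG and Exoseal samples did not deviate together (correlations of -0.18, 0.09 and -0.07), and not every sample correlated best with its own number. With the replicate number as a block, 0 probes passed over all probes (6381 at an unadjusted p under 0.05) and 0 genes of the other lists. Signal near background limits MMP1, MMP3, the dim TIMP1 probes and TIMP2. TIMP2 passed the background flag on every array, but its processed signals were only 16.1 to 31.8. The lowest signals that passed the flag on the arrays of slide 1 were 9.19 to 12.8. The limit therefore also holds for the ratios over TIMP2.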
